A study of Mus musculus with 10 samples.

Results

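The genes described here are 10 genes listed as smooth muscle contractile genes, measured in RNA from brain endothelial cells (BECs). They are Acta2, Tagln, Myh11, Cnn1, Myl9, Des, Tpm2, Mylk, Lmod1 and Tbx2. They were chosen by name as genes of vascular smooth muscle and found through their Ensembl identifiers. Tbx2 encodes a transcription factor and not a part of the contractile apparatus, but it is counted with the contractile genes throughout. Of the 10, 9 were among the 14106 genes of the deposited table, and Cnn1, which encodes calponin, was not among them. Cortical BECs of female mice aged 1 year gave 10 libraries, 5 of genotype APP/PS1 and 5 of age-matched controls labelled WT. APP/PS1 mice carry mutant transgenes of familial Alzheimer's disease and deposit amyloid beta in the brain. Both groups shared the C3H/BL6 background. The promoter of the transgenes and whether a library held 1 mouse or a pool are not given in the sources used here, so each spread is between libraries. BECs were taken as cells bound by CD31 microbeads after removal of the meninges and of myelin.

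Smooth muscle cells wrap the arteries and arterioles of the brain, and their contraction sets vessel diameter. A rise in calcium activates the myosin light chain kinase Mylk, which phosphorylates the regulatory light chain Myl9, so that the myosin heavy chain Myh11 pulls on filaments of smooth muscle actin Acta2. Tagln, Cnn1 and Tpm2 bind those filaments, Lmod1 helps to build them, the intermediate filament protein Des holds the array together, and Tbx2 is a transcription factor present in mural cells. Mural cells, meaning smooth muscle cells and pericytes, lie against the endothelium. The preparations were enriched for endothelial cells, and which cells the RNA of these genes came from was not tested. In bulk libraries fewer smooth muscle cells and less of this RNA per cell cannot be told apart.

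Each of the 9 measured contractile genes had a lower mean in the APP/PS1 libraries than in the control libraries, with log2 fold changes from −0.91 for Lmod1 to −0.20 for Mylk. The median log2 fold change of the 9 genes was −0.77, compared with −0.0038 over all 14106 genes. With replicate number as a term, limma called 0 of the 9 genes at a Benjamini-Hochberg adjusted p under 0.05, and it called 0 of all genes, a share of 0%. At an unadjusted p under 0.05 from limma, 9 of the 9 genes were lower in APP/PS1 libraries, beside 5.91% of all genes. That count dropped to 4 genes without replicate 1, 5 without replicate 3 and 4 without replicate 4. All 5 APP/PS1 libraries lay below their paired control library for 7 of the 9 genes, as for 5% of all genes, and all control libraries lay above all APP/PS1 libraries for the same number, as for 4.96% of all genes. The authors' batch correction left the 2 libraries of a pair as near mirror images around a common mean, so the SD within each group and the separation of the groups both follow from the 5 pair differences.

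**Figure D1:**
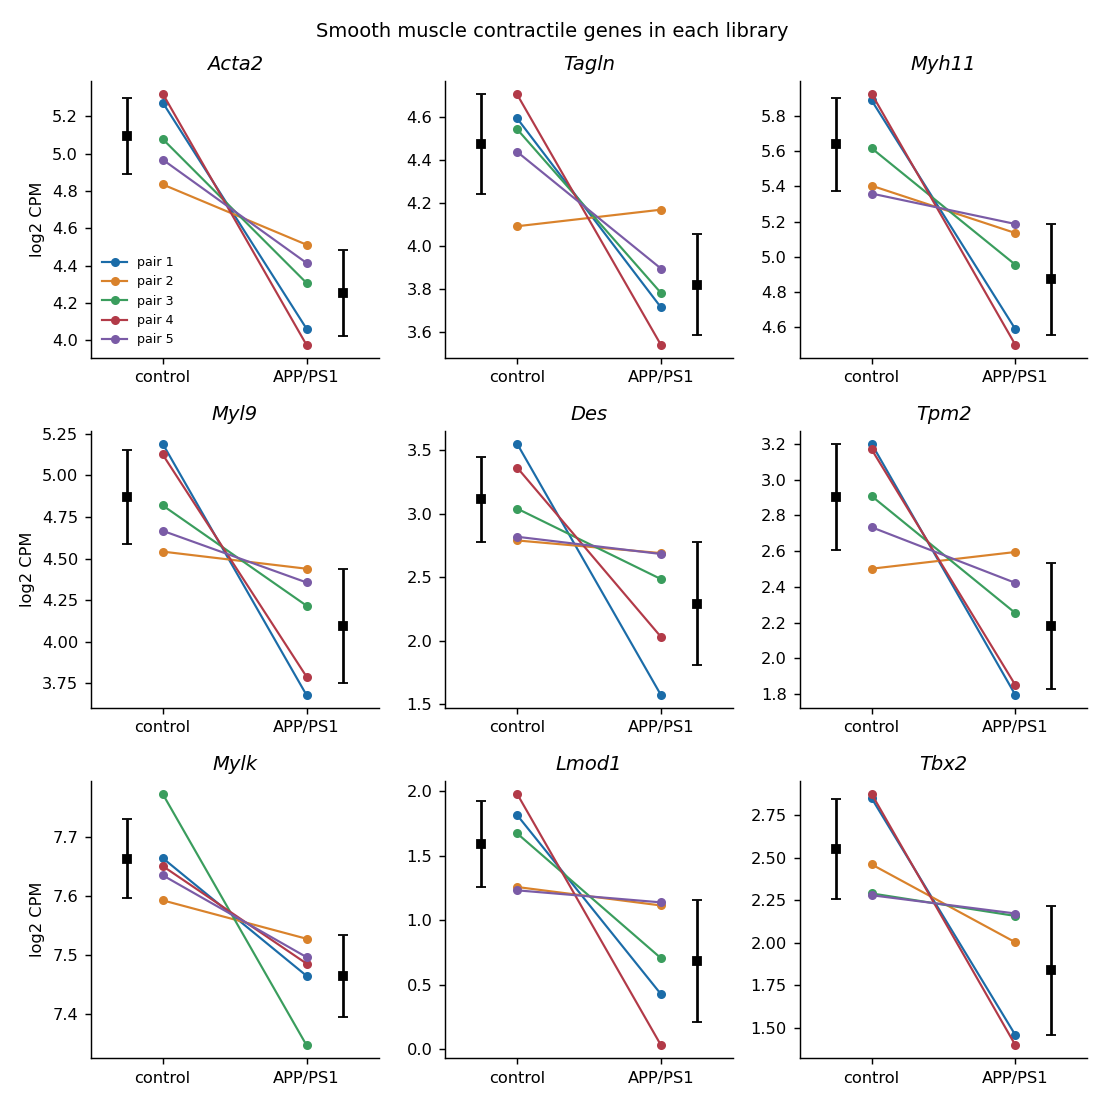
Levels of the 9 measured contractile genes in each library, in log2 CPM on axes that differ between panels and do not start at 0. Lines join the control and APP/PS1 library of a pair, and black squares with bars give the mean and SD of 5 libraries. Pairs 1 and 4 had the steepest lines in most panels, and the pair 2 line ran upward for Tagln and Tpm2.

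The thick filament genes encode the myosin heavy chain and its light chain. Myh11, the heavy chain that defines smooth muscle myosin, lies on chromosome 16 from 14194535 to 14291372 of GRCm38 on the minus strand (ENSMUSG00000018830). It measured 5.89, 5.40, 5.62, 5.93 and 5.36 log2 CPM in control replicates 1 to 5, and 4.59, 5.13, 4.95, 4.50 and 5.19 in APP/PS1 replicates 1 to 5. The lowest control library lay above the highest APP/PS1 library, with replicates 2 and 5 of both groups close to each other and replicates 1 and 4 far apart. The control mean was 5.64 ± 0.26 and the APP/PS1 mean 4.87 ± 0.31 (SD over 5 libraries), and the log2 fold change was −0.77 (95% interval −1.30 to −0.23, adjusted p = 0.553 from limma). Myl9, the regulatory light chain (chromosome 2, 156775420 to 156781658, plus strand, ENSMUSG00000067818), ranged from 4.54 to 5.19 log2 CPM in control and from 3.68 to 4.44 in APP/PS1 libraries. Its groups did not overlap, and its log2 fold change was −0.77 (95% interval −1.35 to −0.19, adjusted p = 0.569 from limma).

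Acta2, smooth muscle actin and the subunit of the thin filament, lies on chromosome 19 from 34241090 to 34255590 on the minus strand (ENSMUSG00000035783). Its levels were 5.27, 4.84, 5.08, 5.32 and 4.97 log2 CPM in control replicates 1 to 5, and 4.06, 4.51, 4.31, 3.97 and 4.41 in APP/PS1 replicates 1 to 5. Every control library lay above every APP/PS1 library, and no pair was level. The control mean was 5.10 ± 0.20 and the APP/PS1 mean 4.25 ± 0.23 (SD over 5 libraries), so that the APP/PS1 level was 0.558 times the control level. Its log2 fold change of −0.84 (95% interval −1.25 to −0.43) had the smallest p of the 9 genes, with an adjusted p of 0.418 from limma. The exact two-sided sign-flip test over 5 pairs gave p = 0.0625, the smallest value that 5 pairs allow. The same value held for each of the 7 contractile genes lower in all 5 pairs, since it restates that count.

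Tagln, or transgelin, crosslinks actin filaments (chromosome 9, 45929619 to 45936058, minus strand, ENSMUSG00000032085). It measured 4.59, 4.09, 4.54, 4.70 and 4.44 log2 CPM in control replicates 1 to 5, and 3.71, 4.17, 3.78, 3.54 and 3.89 in APP/PS1 replicates 1 to 5. The groups overlapped through replicate 2, whose APP/PS1 library was the higher of its pair. Its log2 fold change was −0.65 (95% interval −1.09 to −0.22, adjusted p = 0.537 from limma), with 4 of 5 pairs lower. Exons of Tagln overlap 1241 bases of the antisense gene Gm48529, which had a log2 fold change of −0.33, and 108 bases of Pcsk7, a proprotein convertase gene with a log2 fold change of 0.0043. The strand and overlap settings of the counting are not given in the sources used here, so reads shared by Tagln and Gm48529 may be mixed or left uncounted.

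Tpm2, the beta tropomyosin that winds along the actin filament (chromosome 4, 43514711 to 43523765, minus strand, ENSMUSG00000028464), ranged from 2.50 to 3.20 log2 CPM in control and from 1.79 to 2.60 in APP/PS1 libraries. It overlapped in the same pair as Tagln, with replicate 2 higher in the APP/PS1 library, and its log2 fold change was −0.72 (95% interval −1.32 to −0.12, adjusted p = 0.571 from limma). Lmod1, a leiomodin that starts new actin filaments in smooth muscle (chromosome 1, 135324807 to 135368065, plus strand, ENSMUSG00000048096), had the lowest level of the 9 genes. It measured 1.81, 1.26, 1.67, 1.98 and 1.23 log2 CPM in control replicates 1 to 5, and 0.43, 1.11, 0.71, 0.03 and 1.14 in APP/PS1 replicates 1 to 5. The groups did not overlap, although replicates 2 and 5 were nearly level and replicate 4 differed most. Its log2 fold change of −0.91 (standard error 0.300, 95% interval −1.65 to −0.17, adjusted p = 0.569 from limma) rested on as few as 29 adjusted counts in a library.

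Des, the muscle intermediate filament protein desmin (chromosome 1, 75360329 to 75368579, plus strand, ENSMUSG00000026208), is also made by pericytes. It measured 3.55, 2.79, 3.04, 3.36 and 2.82 log2 CPM in control replicates 1 to 5, and 1.57, 2.69, 2.49, 2.03 and 2.68 in APP/PS1 replicates 1 to 5. Pairs 2 and 5 were almost level, whereas pair 1 had the widest gap of any contractile gene, and the groups did not overlap. The log2 fold change was −0.82 (95% interval −1.58 to −0.07, adjusted p = 0.594 from limma) and moved to −0.53 without replicate 1. Tbx2, the only transcription factor among the 9 genes (chromosome 11, 85832551 to 85841948, plus strand, ENSMUSG00000000093), ranged from 2.28 to 2.88 log2 CPM in control and from 1.40 to 2.17 in APP/PS1 libraries without overlap. Its log2 fold change was −0.71 (95% interval −1.34 to −0.09, adjusted p = 0.581 from limma).

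Mylk, the kinase that switches on smooth muscle myosin, stood apart from the other 8 genes. It lies on chromosome 16 from 34745210 to 35002420 on the plus strand (ENSMUSG00000022836), and endothelial cells also make it, including a long non-muscle form. It measured 7.66, 7.59, 7.77, 7.65 and 7.63 log2 CPM in control replicates 1 to 5, and 7.46, 7.53, 7.35, 7.49 and 7.50 in APP/PS1 replicates 1 to 5. The groups did not overlap, but both were narrow, and replicate 3 rather than 1 or 4 had the widest gap. The control mean was 7.66 ± 0.07 and the APP/PS1 mean 7.46 ± 0.07 (SD over 5 libraries), and the log2 fold change was −0.20 (95% interval −0.36 to −0.04, adjusted p = 0.569 from limma), so that the APP/PS1 level was 0.872 times the control level. The other 8 genes had fold ratios from 0.533 for Lmod1 to 0.636 for Tagln. Isoforms were not separated in the deposited values.

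Per kilobase of annotated exon, the order of the levels in control libraries was Myl9, Mylk, Acta2, Tagln, Myh11, Tpm2, Des, Tbx2 and Lmod1. Myl9 averaged 25.5 CPM per kilobase in control and 15.0 in APP/PS1 libraries, and Acta2 averaged 15.7 and 8.76. At the low end, Tbx2 averaged 1.64 and 1.00 CPM per kilobase, and Lmod1 0.771 and 0.415. Each gene was above the next in all 5 control libraries, except that Mylk was above Acta2 in 4 of 5, with ratios of their levels from 0.980 to 1.32. Tpm2 and Des were also close, with a ratio between 1.01 and 1.22.

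The 5 pairs differed among themselves in the same way for most contractile genes. The median difference of the 9 genes, APP/PS1 minus control in log2 CPM, was −1.39 in pair 1, −0.10 in pair 2, −0.66 in pair 3, −1.34 in pair 4 and −0.17 in pair 5. Pairs 1 and 4 thus carried most of the lower mean, pair 3 lay between, and pairs 2 and 5 were the nearest to level. In pair 1 the differences ran from −1.98 for Des to −0.20 for Mylk, and in pair 4 from −1.95 for Lmod1 to −0.16 for Mylk. In pair 2 they ran from −0.46 for Tbx2 to 0.09 for Tpm2, and in pair 5 from −0.55 for Acta2 to −0.09 for Lmod1. Acta2 and Tagln were the lowest of the 9 genes in pair 5. Libraries of replicate 1 had the fewest adjusted counts of their groups, and the part of depth in the pair 1 difference was not tested.

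**Figure D2:**
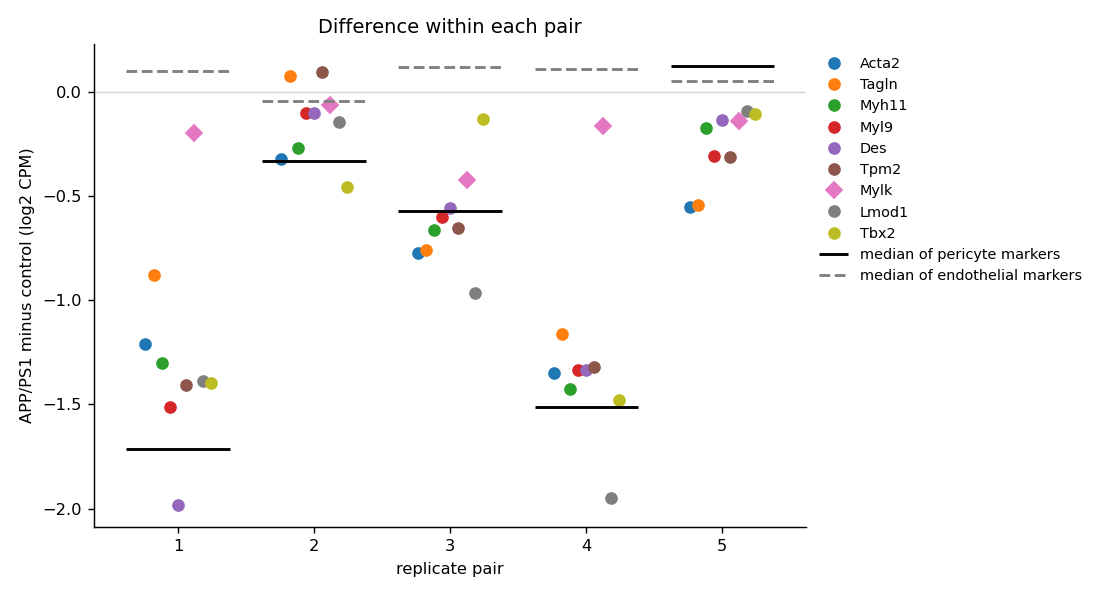
Difference between the APP/PS1 and control library of each replicate pair, in log2 CPM, for the 9 measured contractile genes, with horizontal lines at the medians of 11 pericyte and 12 endothelial marker genes. Apart from Mylk (diamonds), the contractile genes lay lowest in pairs 1 and 4, where the pericyte median was −1.71 and −1.52, and the endothelial median stayed between −0.05 and 0.12 in all 5 pairs.

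A further 27 genes of smooth muscle were listed, of which 24 were in the table and Actg2, Ppp1r14a and Fhl2 were not. Of the 24, 18 had a lower and 6 a higher mean in APP/PS1 libraries, with a median log2 fold change of −0.23. Limma called 0 at the adjusted threshold. At an unadjusted p under 0.05, 11 were lower and 0 higher, beside 833 lower (5.91%) and 300 higher of all 14106 genes. Of the 24, the 3 with the smallest p were Itga8, the integrin alpha 8 subunit, at −0.78, Susd5 at −0.85 and Map3k7cl at −0.68 log2 fold change. All 3 were lower in 5 of 5 pairs, with adjusted p from 0.483 to 0.537 by limma. Itga8 and Susd5 were low in level, with as few as 14 and 15 adjusted counts in a library. Of the 24, the 2 with the highest level had small fold changes. The intermediate filament gene Synm had a log2 fold change of 0.10 and was higher in 4 of 5 pairs. Pcp4l1, a Purkinje cell protein relative, had −0.10 and was lower in 5 of 5 pairs, with groups that did not overlap.

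Genes that control contraction were mixed. Of 24 listed genes, 23 were in the table, without Adra2a, and 10 had a lower and 13 a higher mean in APP/PS1 libraries, with a median log2 fold change of 0.03. None was called at the adjusted threshold by limma. At an unadjusted p under 0.05, 5 were lower and 1 was higher, beside 833 and 300 of all 14106 genes. The 5 lower genes of the list included Kcnma1, the large conductance potassium channel that relaxes smooth muscle, at −0.77 log2 fold change (adjusted p = 0.537 from limma). Kcnma1 was low in level, with as few as 8 adjusted counts in a library. The L-type calcium channel subunit Cacna1c, which admits the calcium for contraction, had −0.78 (adjusted p = 0.571 from limma). The kinase Rock2, which holds myosin light chain in its phosphorylated state and is made by most cell types, was higher in 5 of 5 pairs by a log2 fold change of 0.16 (adjusted p = 0.569 from limma).

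A list of non-muscle actin and myosin genes, which also held other cytoskeletal genes such as Vcl and Vim, served as a comparison. Its median level was 8.20 log2 CPM, beside 4.15 for the contractile genes. All 18 were in the table, 3 with a lower and 15 with a higher mean in APP/PS1 libraries, and the median log2 fold change was 0.07. Limma called 0 at the adjusted threshold. At an unadjusted p under 0.05, 2 of the 18 were lower and 1 higher, beside 833 and 300 of all 14106 genes. Beta actin (Actb), the most abundant, averaged 11.05 ± 0.11 log2 CPM over 5 control and 11.15 ± 0.11 over 5 APP/PS1 libraries (SD), with a log2 fold change of 0.11, and the non-muscle myosin heavy chain Myh9 had 0.13. Cald1, caldesmon, which both smooth muscle and other cells make, had −0.20, Actn1, an actin crosslinker, −0.10, and Actg1, whose reads near-identical copies may share, 0.22.

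Close relatives of the contractile genes could take or give reads. Actg2, Acta1 and Actc1, the actins most like Acta2, were not among the genes of the table. The light chain genes Myl12a and Myl12b, relatives of Myl9, had log2 fold changes of 0.06 and 0.05, Tpm1, a relative of Tpm2, had 0.05, and the calponin gene Cnn2 had 0.04. None of these 4 relatives had a lower mean in APP/PS1 libraries.

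**Figure D3:**
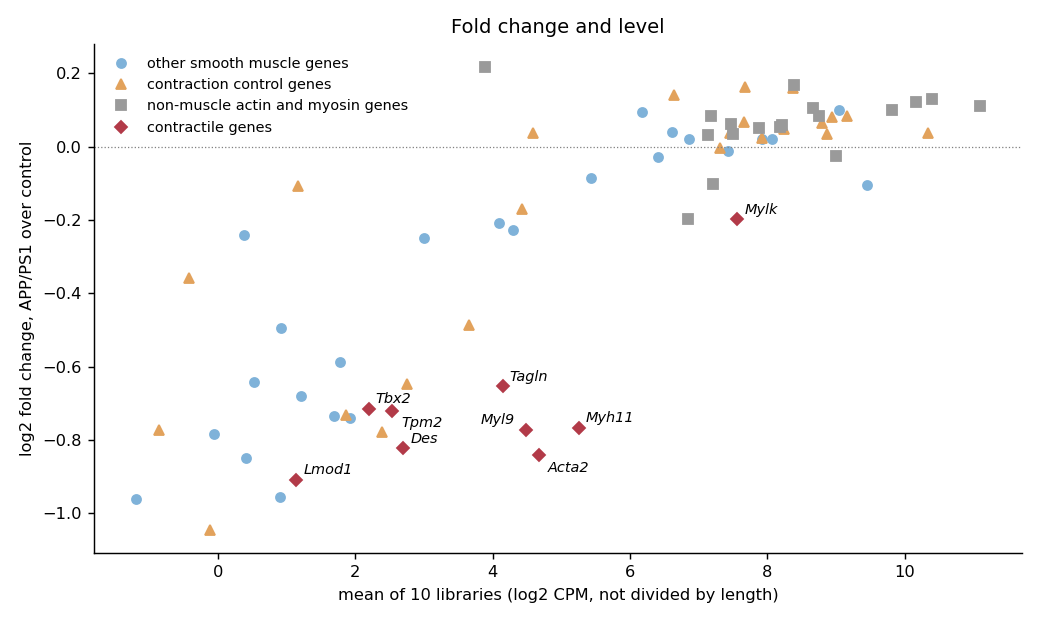
Log2 fold change of APP/PS1 over control against the mean of 10 libraries in log2 CPM, not divided by length, for the contractile genes (diamonds, named), other smooth muscle genes, contraction control genes and non-muscle actin and myosin genes. Genes near −0.8 on the vertical axis had means below 6 log2 CPM, and Mylk lay with the abundant genes.

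Pericytes, the mural cells of capillaries, share several of these genes, and their markers were lower as well. All 11 listed pericyte markers were in the table with none at a count of 0, and 11 of 11 had a lower mean in APP/PS1 libraries, with a median log2 fold change of −0.76. Limma called 0 at the adjusted threshold. At an unadjusted p under 0.05, 8 were lower and 0 higher, beside 833 and 300 of all 14106 genes. Anpep, a surface peptidase of pericytes, had a log2 fold change of −0.55 (adjusted p = 0.373 from limma), Cspg4, the NG2 proteoglycan, −0.81, Rgs5, a regulator of G protein signalling, −0.76, the matrix protein vitronectin (Vtn) −0.76 and Ndufa4l2 −0.87. The summed level of the 11 markers ranged from 556 to 971 CPM in control and from 286 to 583 CPM in APP/PS1 libraries, and overlapped. Rgs5 had a control mean of 8.88 log2 CPM and the next marker, Vtn, 6.28, so this sum mostly followed Rgs5.

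The summed level of the contractile genes other than Mylk ranged from 131 to 192 CPM in control and from 74.9 to 116 CPM in APP/PS1 libraries, without overlap. By pair, APP/PS1 over control, that sum had ratios of 0.405, 0.883, 0.629, 0.390 and 0.795 in pairs 1 to 5, and the summed pericyte markers had 0.294, 0.792, 0.768, 0.390 and 1.05. Mylk was left out of that contractile sum, whereas Rgs5 was kept in the pericyte sum and mostly set it. With Mylk, the contractile sum ranged from 324 to 393 CPM in control and from 254 to 300 CPM in APP/PS1 libraries, without overlap. Its ratios were then 0.646, 0.926, 0.696, 0.647 and 0.862 in pairs 1 to 5, nearer to level in each pair than without Mylk. The median differences of the pericyte markers, in log2 CPM, were −1.71, −0.33, −0.57, −1.52 and 0.12 in pairs 1 to 5. Each of these sums was lowest relative to control in pairs 1 and 4. In pair 5 the contractile sum was below and the pericyte sum just above its control, a difference that was not tested. The part of pericyte content in the contractile gene result was not tested.

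Endothelial markers lay close to level. Of 12, 2 had a lower and 10 a higher mean in APP/PS1 libraries, and their log2 fold changes had a median of 0.08. Limma called 0 of the 12 at the adjusted threshold. At an unadjusted p under 0.05 it also called 0, beside 833 lower and 300 higher of all 14106 genes. The summed level of the 12 markers was between 24842 and 26974 CPM in control libraries. It was between 25147 and 27350 CPM in APP/PS1 libraries, far above that of the contractile genes. Flt1, a receptor for vascular endothelial growth factor, had a log2 fold change of 0.09 and the glucose transporter Slc2a1 −0.06. Arterial endothelial markers, which mark the vessels that smooth muscle surrounds, had a lower mean for 2 of 11 and a higher mean for 9, and their log2 fold changes had a median of 0.05, with 0 called in either way. Among them the semaphorin Sema3g had 0.15, the connexin Gja5 −0.14 and the matrix protein Mgp 0.04.

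Markers of the other cells of brain tissue were mostly lower and differed in size. Of 8 fibroblast markers, 4 were in the table and all 4 had a lower mean. The median log2 fold change was −0.58, and their sum was 15.03 to 20.4 CPM in control and 10.02 to 14.3 CPM in APP/PS1 libraries. The 5 measured of 6 oligodendrocyte markers had a median of −2.39 and sums of 35.3 to 269 and 30.3 to 137 CPM, and Mag, a myelin glycoprotein gene, was at a count of 0 in at least 1 library. The 3 measured of 6 neuron markers had a median of −1.05 and sums of 6.57 to 8.13 and 4.74 to 6.08 CPM. The 6 astrocyte markers, 5 lower and 1 higher, had a median of −0.66 and sums of 162 to 199 and 170 to 210 CPM. Gja1, the higher one with a log2 fold change of 0.27, had a control mean of 7.09 log2 CPM. The next, Slc1a2, had 4.56, so the astrocyte sum mostly followed Gja1. The 4 measured of 5 microglia markers, 3 lower and 1 higher, had a median of −0.24 and sums of 7.96 to 13.4 and 6.28 to 11.4 CPM. At an unadjusted p under 0.05 from limma, 1 fibroblast, 2 oligodendrocyte, 2 neuron, 2 astrocyte and 0 microglia markers were lower. Of these markers 0 were higher, and 0 were called at the adjusted threshold. Of all 14106 genes, 833 were lower and 300 higher at that unadjusted p. Pair differences also varied in these lists, with medians in pairs 1 to 5 of −4.56, 1.66, −1.85, −4.86 and −2.36 for oligodendrocyte markers. Neuron markers had −2.76, −0.41, −0.63, −1.13 and −1.12, and astrocyte markers −2.29, 0.36, −1.53, −0.60 and −0.01. Fibroblast markers had −1.34, −0.39, −0.80, −0.17 and −0.15, and microglia markers 0.72, 0.35, −1.20, −0.09 and −0.57. The part of these cells in the contractile gene result was not tested.

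**Figure D4:**
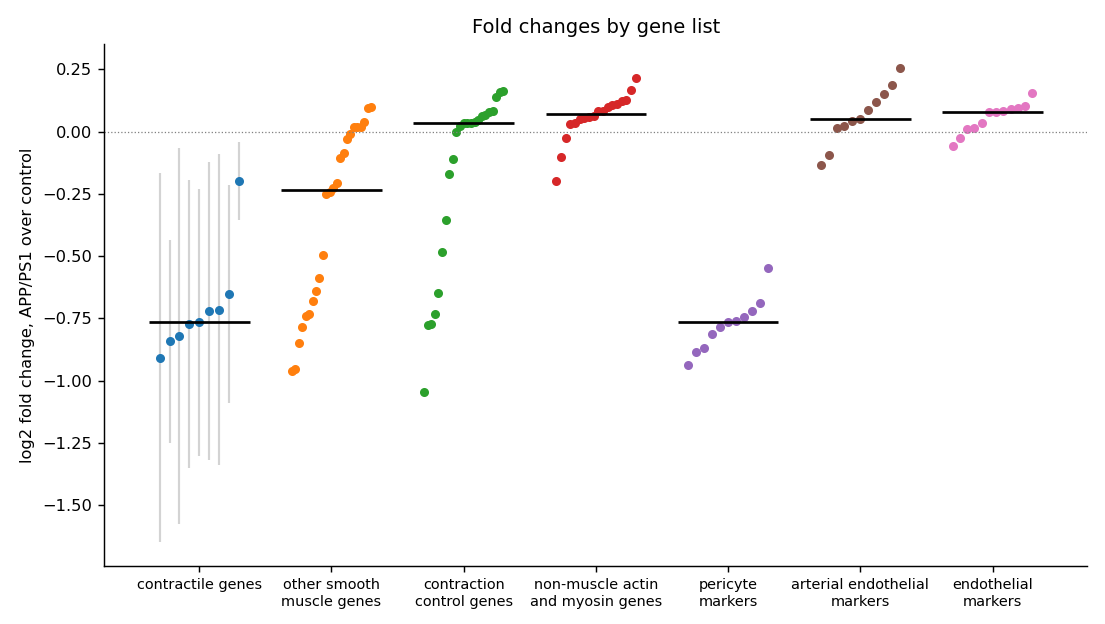
Log2 fold change of APP/PS1 over control for each measured gene of 7 lists (points), with the list median (horizontal bars) and, for the contractile genes, the 95% interval of the limma fit (grey lines). The medians were −0.77 for the contractile genes, −0.76 for pericyte markers and between −0.23 and 0.08 for the other lists shown. Fibroblast, oligodendrocyte, neuron, astrocyte and microglia markers are not shown.

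Genes were also ranked by how near their 5 pair differences came to the median pair differences of the contractile genes, as the root mean square distance in log2 units over 5 pairs. Over the 13118 other genes whose mean reached 0 log2 CPM, the median distance was 0.924. The nearest were Slc19a1, the reduced folate carrier, at 0.0694, Mrvi1, a substrate of cyclic GMP kinase in smooth muscle, at 0.0874, Ednra, the endothelin A receptor through which endothelin constricts vessels, at 0.0989, Rasl12 at 0.101 and Ncald, a neuronal calcium sensor gene, at 0.111. Of the contractile genes, which set that median themselves, Myl9 at 0.0857 and Myh11 at 0.0935 were nearest, and Mylk at 0.754 was farthest.

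The promoters of the listed contractile genes were also searched for a short sequence. The list included Cnn1, which was not measured, and Mylk, whose pair differences stood apart, and a shared regulator was not tested. Serum response factor, with myocardin, drives many smooth muscle genes through the CArG box, a run of CC, A or T bases, and GG that reads alike on both strands. RefSeq promoter sequences of GRCm38.p6, from 250 bases before to 50 after the start, were held for 7 of the 10 genes, namely Acta2, Cnn1, Myl9, Des, Tpm2, Mylk and Lmod1. An exact CArG box was in 1 of the 7, Myl9, and in 1.63% of all 32851 promoters, and a CArG-like run with at most 1 other base between CC and GG was in 2 of the 7, Acta2 and Myl9, and in 9.98% of all promoters. The 4 runs are shown in 30 bases each, 5′ to 3′ on the strand of the gene, with the run in capitals. The first Myl9 sequence is the exact box, and the others are CArG-like. The bases between start and run count from the start of the RefSeq transcript, and both Acta2 windows lie in the first exon, a UTR, of the longer GENCODE transcript Acta2-201.
Acta2, 84 bases before the start, chr19:34255438-34255467, minus strand: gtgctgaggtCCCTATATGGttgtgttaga
Acta2, 34 bases before the start, chr19:34255388-34255417, minus strand: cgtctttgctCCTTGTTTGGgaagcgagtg
Myl9, 161 bases before the start, chr2:156775293-156775322, plus strand: caagcagaggCCTAATAAGGccgggctggc
Myl9, 99 bases before the start, chr2:156775355-156775384, plus strand: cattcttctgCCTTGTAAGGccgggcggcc
These matches describe letters in a short window, and no binding was measured.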

How the data were processed

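RNA of 10 BEC libraries was sequenced. The authors used STAR for alignment to mm10, HTSeq for gene counts and edgeR for filtering and scaling, corrected for batch and deposited log2 CPM of 14106 genes. Versions are not given in the sources used here. Whole adjusted counts could be recovered from 100% of the values (tolerance 0.01, prior count 3), with totals from 22371766 to 126686149. Counting errors were not derived from them, as they are no longer reads. A log2 fold change is on the scale with the prior count, which understates changes of low genes.

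The study's supplement gives 5 batches, each pairing a control with an APP/PS1 library of the same replicate number, whereas the labels give 4 batches. Deviations of paired libraries from their group means had correlations across genes from −0.970 to −0.939, negative because the pair means had been set nearly equal (median SD 0.0035 log2 CPM). With R 4.3.3 and limma 3.58.1, lmFit and eBayes were fitted to the deposited log2 values over all genes with genotype and replicate number as terms, after being tested on simulated data, with Benjamini-Hochberg adjustment over 14106 genes and a threshold of 0.05. Symbols, positions and exon lengths came from GENCODE M21 of GRCm38, where 14106 of 14106 identifiers matched.

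The contractile genes, lists and tests were chosen with earlier results of these data known. Named genes were the contractile genes, their relatives and overlapping genes, up to 3 genes of smallest p and 2 of highest level per list, of which some are not reported here, and the 5 nearest by pair differences. Labels do not state separate animals per library, so p values of the main fit measure the spread of the 5 pair differences among these libraries.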

Additional observations from a re-analysis of the deposited data

How the results depend on the processing

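All 9 contractile genes kept a negative log2 fold change in the 12 alternative settings. Settings that altered only the block, the gene filter or the eBayes trend could not move that estimate, so its sign was fixed there. Of 108 single-gene alternatives 103 stayed on the same side of the adjusted threshold, 5 passed it and 0 reversed. The 5 all came without the replicate block: limma then called 5 of the 9 genes, Acta2, Tagln, Mylk, Myh11 and Myl9, with adjusted p from 0.0102 for Acta2 to 0.0484 for Myl9, among 648 genes in all. That model ignores the pairing and counts the degrees of freedom already used by the batch correction as free. In every other setting 0 contractile genes were called, with adjusted p from 0.163 to 0.352 with the 4 batches of the labels. The count lower in all pairs was 6 with library size alone, where the median of all genes was −0.0409, and 7 in the other settings with 5 pairs. With 1 replicate left out in turn, 0 of the 9 genes were called, the median log2 fold change ranged from −0.92 to −0.59, and the count lower in all remaining pairs ranged from 7 to 9. The lowest adjusted count of a contractile gene in a library was 29, for Lmod1, and the precision that depth gives to each library was not measured.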

Other observations

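A library far from the others of its group was searched for over the 9 contractile genes in 2 groups of 5 libraries. The 18 searches, with Dixon's critical value of 0.71, found 0. As the batch correction left paired libraries near mirror images, the 2 searches of a gene were nearly the same search. They could not show whether a library was unusual before that correction.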
